A study of Homo sapiens with 9 samples.

Results

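The aldo-keto reductases described here are 7 genes of 1 enzyme superfamily: AKR1C1, AKR1C2, AKR1C3, AKR1B10, AKR1B1, AKR1A1 and AKR7A2. They were found in the deposited table by their Ensembl gene IDs and are 7 of its 58299 genes. Aldo-keto reductases use NADPH to reduce aldehydes and ketones to alcohols. Their substrates include sugars, lipid peroxidation products, steroids, prostaglandins and drugs with a carbonyl group, among them anthracyclines such as doxorubicin. In human cells several AKR1C and AKR1B genes are known targets of NRF2, a transcription factor that the adaptor KEAP1 marks for degradation, while AKR1A1 and AKR7A2 are widely expressed housekeeping forms.

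RNA was sequenced from AC16 cells in 3 groups of 3 samples: 100 nM CDDO-Me for 72 h, 100 nM CDDO-Me for 24 h, and 0.1% DMSO, the vehicle, for 72 h. The drug, also called bardoxolone methyl, is a triterpenoid that modifies cysteines of KEAP1. By its title the series concerns NRF2 and protection from doxorubicin, and no library analysed here received doxorubicin. Some titles and the design text write CDDO where the treatment label has CDDO-Me, and every treated sample was taken as CDDO-Me. AC16 is 1 proliferating human line, made by fusing adult ventricular heart cells with SV40-transformed fibroblasts, so it is a limited model of heart muscle. No 24 h vehicle was analysed here, so CDDO-Me 24 h and DMSO samples also differ in culture time. Nothing in the labels tells whether the replicates came from separate cultures, and the p-values reflect the variation among these samples, possibly only technical.

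Total counts ran from 16898977 to 27910031 per library, and a count of 3 equals 0.110 to 0.175 CPM (read counts relative to the scaled library size). Of 17 heart muscle markers 10, including MYH6, MYH7, TNNI3, ACTN2 and RYR2, had under 3 counts in every library, and 2 were high enough to be tested. These were GATA4, a cardiac transcription factor (21.3 ± 0.754 CPM in CDDO-Me 72 h, 21.3 ± 3.16 CPM in CDDO-Me 24 h and 25.3 ± 0.471 CPM in DMSO, SD, n = 3), and TTN, titin (6.04 ± 1.13 CPM in CDDO-Me 72 h, 6.84 ± 1.95 CPM in CDDO-Me 24 h and 6.15 ± 0.544 CPM in DMSO). Neither was called in any comparison. All 12 fibroblast markers were expressed. Of hepatocyte markers, 5 of 7 (ALB, APOA1, APOB, TTR and CYP3A4) had under 3 counts in every library. A pair of libraries stood apart from their groups. CDDO-Me 24 h replicate 3 differed from replicates 1 and 2 by a root mean square of 0.57 and 0.55 in log2 CPM, against 0.33 between those replicates. From CDDO-Me 72 h replicates 1, 2 and 3 it differed less, by 0.45, 0.44 and 0.45. Over all tested genes it was thus nearer to the 72 h libraries than to its own group, which bears on both comparisons with CDDO-Me 24 h. DMSO replicate 1 differed from replicates 2 and 3 by 0.43 and 0.46, against 0.36 between those replicates. These 2 libraries were picked as deviant in these same data, so leaving out either lowers the spread by construction. Values without them are given below as a description, and no support is drawn from their p-values.

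The AKR1C genes are close copies, which bears on how reads could be shared among them. AKR1C1 (chr10:4963253-4983283, plus strand, GRCh38), AKR1C2 (chr10:4987400-5018031, minus strand) and AKR1C3 (chr10:5035354-5107686, plus strand) lie side by side. The first 90 coding bases of their principal GENCODE 29 transcripts are shown, and capitals mark bases that differ from AKR1C1. AKR1C2 differs there at 1 position and AKR1C3 at 11.
AKR1C1: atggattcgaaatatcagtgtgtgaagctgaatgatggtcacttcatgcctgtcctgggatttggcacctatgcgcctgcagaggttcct
AKR1C2: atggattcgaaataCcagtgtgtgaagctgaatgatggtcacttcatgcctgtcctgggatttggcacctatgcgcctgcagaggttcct
AKR1C3: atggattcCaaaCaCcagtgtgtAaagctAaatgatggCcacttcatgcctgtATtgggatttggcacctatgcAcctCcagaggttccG
Over the whole coding sequence of 969 bases, AKR1C2 differed from AKR1C1 at 19 positions (98.0% identity) and AKR1C3 differed from AKR1C1 at 83 (91.4% identity). Of all 50-base windows of the principal transcript, 52.2% in AKR1C2, 28.7% in AKR1C1 and 12.1% in AKR1C3 occurred exactly in another aldo-keto reductase gene or pseudogene. For AKR1B10 the share was 16.6%, mostly with AKR1B15. It was 8.0% for AKR7A2, 4.78% for AKR1B1 and 0% for AKR1A1. How reads with several matches were counted is not given in the sources used here, so the split among AKR1C1, AKR1C2 and AKR1C3 is uncertain, and their sum was tested as well. AKR1C2 also overlaps an antisense gene, AL391427.1, whose reads cannot be told apart from its own in libraries without strand.

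The promoters of AKR1C1 and AKR1C2 are shown because the windows are near copies. Each window runs from 250 bases before to 50 bases after the RefSeq start (GRCh38.p14), for AKR1C1 at chr10:4963165-4963464 on the plus strand and for AKR1C2 at chr10:5003808-5004107 on the minus strand. Capitals mark bases with no identical partner when these windows are aligned.
AKR1C1: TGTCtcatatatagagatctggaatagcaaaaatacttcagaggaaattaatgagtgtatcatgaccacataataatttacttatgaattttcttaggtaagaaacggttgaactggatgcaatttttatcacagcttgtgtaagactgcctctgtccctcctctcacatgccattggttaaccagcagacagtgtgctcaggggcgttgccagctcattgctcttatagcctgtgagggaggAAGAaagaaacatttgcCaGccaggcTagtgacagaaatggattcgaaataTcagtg
AKR1C2: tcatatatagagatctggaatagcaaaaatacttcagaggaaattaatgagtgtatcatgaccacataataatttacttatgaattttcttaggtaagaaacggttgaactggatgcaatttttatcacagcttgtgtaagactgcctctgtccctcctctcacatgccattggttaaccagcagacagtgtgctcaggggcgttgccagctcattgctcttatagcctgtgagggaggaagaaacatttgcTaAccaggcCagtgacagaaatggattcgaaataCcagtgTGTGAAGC
The aligned windows were 93.5% identical. RefSeq windows were at hand for 6 of the 7 genes, and AKR1B10 was not matched. They were searched on both strands for TGACNNNGC, the core of the antioxidant response element to which NRF2 binds. No match was found in the windows of AKR1C1, AKR1C2, AKR1C3, AKR1B1 or AKR1A1. The AKR7A2 window (chr1:19312097-19312396, minus strand) held 3 matches, in capitals here, of which 1 is on the opposite strand.
AKR7A2: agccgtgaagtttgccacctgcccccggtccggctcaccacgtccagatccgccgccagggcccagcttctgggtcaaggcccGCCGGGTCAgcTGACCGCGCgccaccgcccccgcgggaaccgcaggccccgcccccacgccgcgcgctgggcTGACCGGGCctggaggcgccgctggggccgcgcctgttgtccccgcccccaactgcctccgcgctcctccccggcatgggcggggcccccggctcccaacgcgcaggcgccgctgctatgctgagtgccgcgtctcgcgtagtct
Of all 35116 promoter windows of this length, 13.3% held a match. A match is only a description of the letters, and these windows say nothing of more distant elements.

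After 72 h of CDDO-Me the 3 AKR1C genes, AKR1B10 and AKR1B1 were higher than in DMSO, while AKR1A1 and AKR7A2 did not pass the test. With edgeR's quasi-likelihood test and an adjusted p under 0.05 over 14965 tested genes, 5 of the 7 genes were higher and 0 lower than in DMSO, and 5 of 7 also had an unadjusted p under 0.05. Over all tested genes 2.89% were called higher and 3.13% lower, 6.02% in all. The share of all tested genes at an unadjusted p under 0.05 is not given. Counts at that level, here and below, therefore have no background to be judged by. The edgeR shares do not serve for them, nor for counts with limma-voom, whose totals are not given. The median log2 fold change was 2.60 over the 7 genes and 0.00 over all tested genes. All 7 passed the filter on low counts, AKR1B10 and AKR1C2 through the CDDO-Me libraries, since 1 and 2 of the 3 DMSO libraries reached its minimum. The 7 genes were also chosen with earlier results of these data known. Their counts beside the shares of all tested genes, here and below, are thus a description and no independent support. In bulk RNA, more expressing cells and more RNA per cell cannot be told apart.

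**Figure D1:**
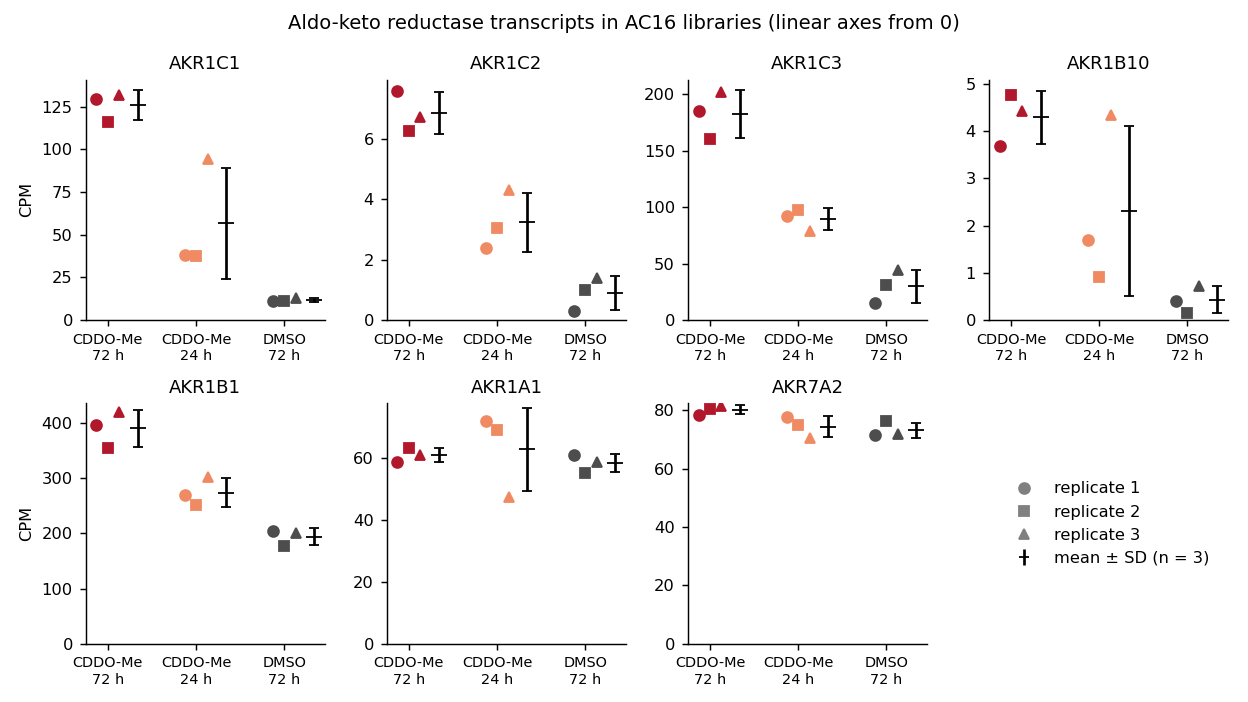
CPM of each gene by library, with linear axes from 0; points are libraries, marked by replicate, and bars are mean ± SD (n = 3) for CDDO-Me 72 h, CDDO-Me 24 h and DMSO 72 h. AKR1C1 lay at 116 to 132 CPM at 72 h, at 37.4 to 94.4 at 24 h and at 11.0 to 13.2 in DMSO, while AKR1A1 overlapped between all groups.

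AKR1C1, which inactivates progesterone and reduces lipid-derived aldehydes and ketones, had the highest estimated fold change of the 7 genes at 72 h. It stood at 129.8, 116 and 132 CPM in CDDO-Me 72 h, at 38.4, 37.4 and 94.4 CPM in CDDO-Me 24 h, and at 11.3, 11.0 and 13.2 CPM in DMSO. The 3 groups did not overlap, and at 24 h replicate 3 was far above the others. The gene rose 10.6-fold at 72 h relative to DMSO (log2 fold change 3.41 ± 0.39, SE, adjusted p = 0.0028, edgeR). At 24 h it was 4.83-fold higher (2.27 ± 0.38, adjusted p = 0.0309). This 24 h call ended under 9 of 17 alternatives (adjusted p up to 0.116, without DMSO replicate 2). Without CDDO-Me 24 h replicate 3 the 24 h value was 1.68 ± 0.10 (adjusted p = 3.48e-09). That library was picked as deviant in these same data, so no support is drawn from this p.

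AKR1C2, which inactivates dihydrotestosterone, was the lowest of the AKR1C genes. It had 7.61, 6.26 and 6.73 CPM in CDDO-Me 72 h, 2.39, 3.04 and 4.31 CPM in CDDO-Me 24 h, and 0.310, 0.990 and 1.40 CPM in DMSO. No library of 1 group reached the range of another, and the lowest DMSO value rested on 6 counts. AKR1C2 rose 7.53-fold at 72 h (log2 2.91 ± 0.36, adjusted p = 0.000196) and 3.61-fold at 24 h (1.85 ± 0.37, adjusted p = 0.0151) relative to DMSO. Without DMSO replicate 1 these values were 2.51 ± 0.30 (adjusted p = 0.000286) and 1.45 ± 0.30 (adjusted p = 0.0278), and the 24 h call ended without DMSO replicate 2 (adjusted p = 0.0802).

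AKR1C3, which makes testosterone from androstenedione and reduces prostaglandins, had the highest mean level per length among the AKR1C genes in every group. Its values were 186, 160.0 and 202 CPM in CDDO-Me 72 h, 92.6, 97.9 and 78.7 CPM in CDDO-Me 24 h, and 14.9, 31.3 and 44.0 CPM in DMSO. The groups did not overlap, but DMSO replicate 1 was well below replicates 2 and 3. AKR1C3 was 6.06-fold higher at 72 h than in DMSO (log2 2.60 ± 0.35, adjusted p = 0.00548), and by log2 2.28 ± 0.16 without DMSO replicate 1 (adjusted p = 1.77e-05). At 24 h the difference of 1.57 ± 0.34 did not pass (adjusted p = 0.0764). Without DMSO replicate 1 it was 1.25 ± 0.15 and passed (adjusted p = 0.00135), as it did at 1.96 without DMSO replicate 3, which had the highest (adjusted p = 0.0206). The other fits with 1 library left out did not pass, with adjusted p up to 0.217.

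Counted as 1 feature, AKR1C1, AKR1C2 and AKR1C3 summed to a 7.36-fold rise at 72 h (log2 2.88 ± 0.27, adjusted p = 0.000548, edgeR). At 24 h the summed feature was 3.50-fold higher than in DMSO (1.81 ± 0.26, adjusted p = 0.0116), a call that ended without DMSO replicate 2 (adjusted p = 0.0549). Without DMSO replicate 1 these values were 2.63 ± 0.16 at 72 h (adjusted p = 9.99e-06) and 1.56 ± 0.16 at 24 h (adjusted p = 0.000417). Between 72 h and 24 h its difference of 1.07 ± 0.25 did not pass (adjusted p = 0.113), but passed without DMSO replicate 1 (adjusted p = 0.00246) or DMSO replicate 3 (adjusted p = 0.0259). The sum sets aside how reads were split among these 3 genes, but reads that were dropped, counted more than once or given to other copies would still bear on it, which was not tested.

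**Figure D2:**
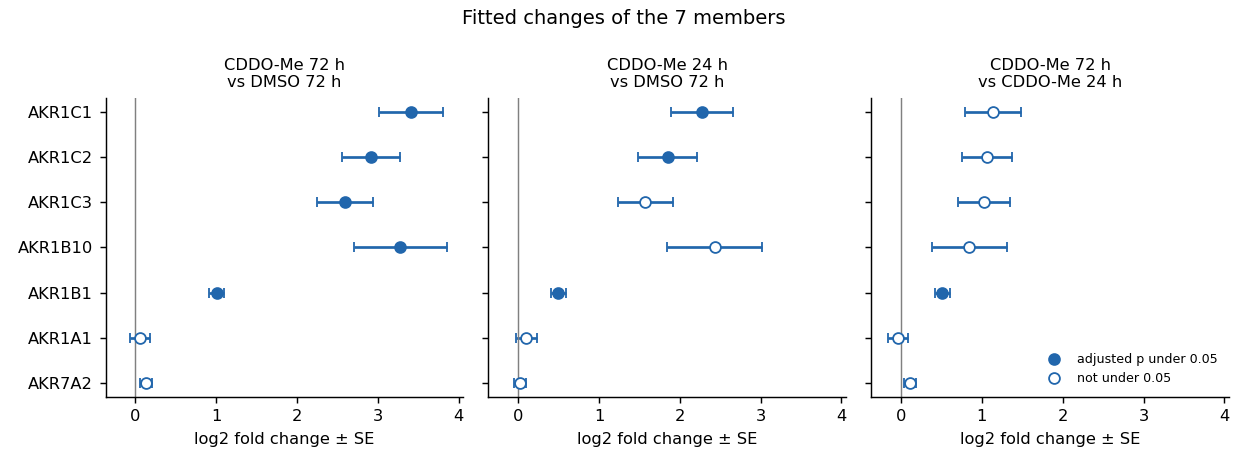
Log2 fold change ± SE of the 7 genes in the 3 comparisons, with filled points for an adjusted p under 0.05. At 72 h against DMSO the AKR1C genes and AKR1B10 lay between 2.60 and 3.41 and AKR1B1 at 1.01, with AKR1A1 and AKR7A2 near 0.

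The make-up of the AKR1C reads differed between libraries. AKR1C1 took 40.2%, 41.1% and 38.8% of AKR1C1-3 counts in CDDO-Me 72 h, 28.8%, 27.1% and 53.2% in CDDO-Me 24 h, and 42.6%, 25.5% and 22.5% in DMSO. The 72 h libraries lay close together. In each of the other groups 1 library differed from the rest, and these were the libraries that also stood apart across all genes: CDDO-Me 24 h replicate 3 and DMSO replicate 1. In CDDO-Me 24 h replicate 3 AKR1C1 had 1.20 counts for each AKR1C3 count, and in replicates 1 and 2 it had 0.414 and 0.383. AKR1C2 took 1.17% to 2.43% of AKR1C1-3 counts in the 9 libraries. The groups overlapped, and these shares were not tested.

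**Figure D3:**
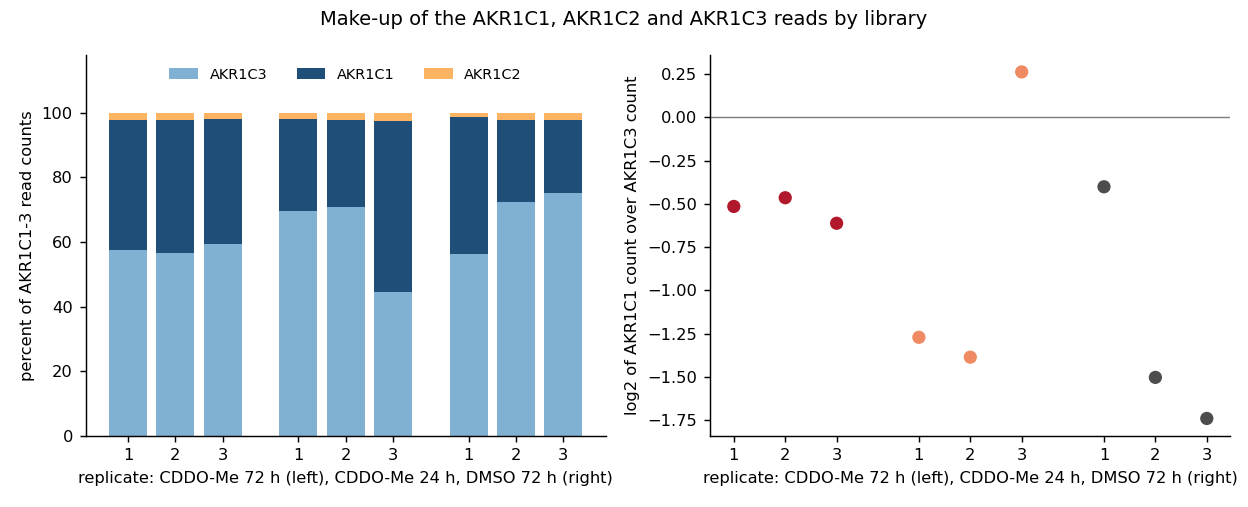
Left, percent of AKR1C1-3 read counts taken by each gene in each library; right, log2 of the AKR1C1 count over the AKR1C3 count, both with CDDO-Me 72 h at left, then CDDO-Me 24 h and DMSO 72 h. The 72 h ratios lay between -0.61 and -0.47, while CDDO-Me 24 h replicate 3, at 0.26, was the only library above 0.

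AKR1B10, which reduces retinal and lipid aldehydes, was among the least abundant genes of the family and is close in sequence to AKR1B15. It had 3.68, 4.78 and 4.43 CPM in CDDO-Me 72 h, 1.69, 0.912 and 4.35 CPM in CDDO-Me 24 h, and 0.413, 0.156 and 0.726 CPM in DMSO. These DMSO values rest on 8, 3 and 15 counts. The gene was 9.70-fold higher at 72 h than in DMSO (log2 3.28 ± 0.57, adjusted p = 0.00487, edgeR). At 24 h the difference of 2.43 ± 0.59 did not pass (adjusted p = 0.0583), and CDDO-Me 24 h replicate 3 alone was in the 72 h range. Without that library the 24 h value was 1.54 ± 0.46 (adjusted p = 0.0373), and without CDDO-Me 24 h replicate 2 it was 2.80 (adjusted p = 0.0119). Of the 9 fits with 1 library left out only these 2 passed, with adjusted p up to 0.230 in the others.

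AKR1B1, aldose reductase, turns glucose into sorbitol in the first step of the polyol pathway and was the most abundant member in every library. It had 396, 354 and 419.7 CPM in CDDO-Me 72 h, 269, 251 and 302 CPM in CDDO-Me 24 h, and 205, 177 and 201 CPM in DMSO. The 3 groups did not overlap. AKR1B1 rose 2.01-fold at 72 h (log2 1.01 ± 0.09, adjusted p = 1.51e-05) and 1.41-fold at 24 h (0.50 ± 0.09, adjusted p = 0.0102) relative to DMSO.

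AKR1A1, aldehyde reductase, reduces glucuronate and many aldehydes. Its values were 58.8, 63.2 and 61.0 CPM in CDDO-Me 72 h, 72.0, 69.2 and 47.4 CPM in CDDO-Me 24 h, and 61.1, 55.4 and 58.9 CPM in DMSO. The groups overlapped, with CDDO-Me 24 h replicate 3 the lowest of the 9 libraries. Neither the 72 h difference (log2 0.06 ± 0.13, adjusted p = 0.856) nor the 24 h difference (0.10 ± 0.13, adjusted p = 0.806) passed. Without CDDO-Me 24 h replicate 3 the 24 h difference was 0.27 ± 0.08 and passed (adjusted p = 0.0326). As that library was picked as deviant in these same data, no support is drawn from this call.

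AKR7A2 reduces succinic semialdehyde and dialdehydes such as that of aflatoxin. It had 78.4, 80.5 and 81.5 CPM in CDDO-Me 72 h, 77.7, 74.9 and 70.6 CPM in CDDO-Me 24 h, and 71.4, 76.2 and 71.8 CPM in DMSO. The 72 h libraries were all slightly above the others, but the difference from DMSO of 0.13 ± 0.07 did not pass (adjusted p = 0.369). At 24 h the difference was 0.02 ± 0.07 (adjusted p = 0.935).

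At 24 h against DMSO, 3 of the 7 genes were called higher and 0 lower (AKR1C1, AKR1C2 and AKR1B1), while 0.969% of all tested genes were called higher and 1.18% lower, 2.15% in all. At an unadjusted p under 0.05 the count was 5, and the share of all tested genes at that level is not given. DESeq2 called 5, and its total over all genes is given with the alternatives below. Among the called genes, AKR1C2 had passed the filter through the CDDO-Me libraries, where it is higher, so the count of 3 is a description only. The median over the 7 genes was 1.57, against 0.01 over all tested genes. This comparison depended on single libraries. Without DMSO replicate 2, 0 of 7 passed, with adjusted p of 0.0776 for AKR1B1, 0.0802 for AKR1C2 and 0.116 for AKR1C1. The call of AKR1C1 ended when any 1 of 6 of the 9 libraries was left out, namely each DMSO and each CDDO-Me 72 h library, with adjusted p of 0.0680 to 0.116. It also ended with no filter on low counts (adjusted p = 0.0695), with limma-voom (adjusted p = 0.0560) and in a fit of these groups alone (adjusted p = 0.113). Without CDDO-Me 24 h replicate 3, 5 of 7 passed, but no support is drawn from this count, as that library was picked as deviant. At 72 h against DMSO AKR1C1, AKR1C2, AKR1C3, AKR1B10 and AKR1B1 passed under every alternative tried.

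Between 72 h and 24 h of CDDO-Me, AKR1B1 was the only gene of the 7 called (log2 0.51 ± 0.09, adjusted p = 0.0150, edgeR), where 0.448% of all tested genes were called higher and 0.568% lower, 1.02% in all. That call ended without CDDO-Me 72 h replicate 1, CDDO-Me 72 h replicate 3, CDDO-Me 24 h replicate 1 or CDDO-Me 24 h replicate 2, with adjusted p up to 0.139. The differences of AKR1C1 (1.14 ± 0.35, adjusted p = 0.235), AKR1C2 (1.06 ± 0.31, adjusted p = 0.142) and AKR1C3 (1.03 ± 0.32, adjusted p = 0.247) did not pass, although no 24 h library reached the 72 h range. AKR1B10 (0.84 ± 0.46, adjusted p = 0.465), AKR7A2 (0.11 ± 0.07, adjusted p = 0.569) and AKR1A1 (-0.04 ± 0.13, adjusted p = 0.927) did not pass either. Without CDDO-Me 24 h replicate 3, 4 of 7 were called higher, among them AKR1C1 at 1.74 ± 0.09 (adjusted p = 6.51e-10) and AKR1B10 at 1.74 ± 0.36 (adjusted p = 0.00402). DMSO replicate 1 is in neither group compared here but enters the filter, the scaling and the shared estimate of spread. Without it 3 of 7 passed, among them AKR1C2 (adjusted p = 0.0377) and AKR1C3 (adjusted p = 0.00249). As CDDO-Me 24 h replicate 3 and DMSO replicate 1 were picked as deviant in these same data, no support is drawn from the fits without them. The comparisons with DMSO share its 3 libraries.

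**Figure D4:**
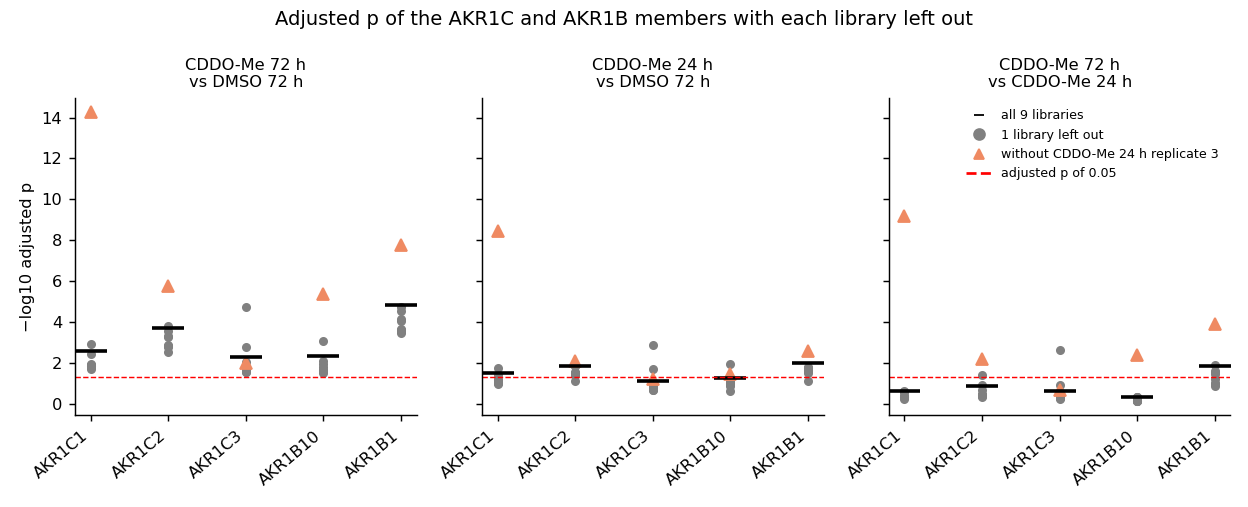
−log10 adjusted p of the AKR1C and AKR1B genes with all 9 libraries (bars) and with each library left out (points); the triangle is the fit without CDDO-Me 24 h replicate 3 and the dashed line an adjusted p of 0.05. All points lie above the line at 72 h against DMSO, whereas points fall on both sides at 24 h against DMSO and at 72 h against 24 h.

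Counting genes whose libraries did not overlap gave 6 of 7 higher at 72 h than in DMSO, where 15.5% of all tested genes were. At 24 h against DMSO it gave 5 of 7, where 6.73% of all tested genes were. At 72 h against 24 h it gave 5 of 7, where 10.8% of all tested genes were. AKR1B10 and AKR1C2, which passed the filter through the CDDO-Me libraries, are among those counted against DMSO. These counts are a description only.

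Levels were compared between genes per length, as RPKM (CPM per kilobase of merged exons). In CDDO-Me 72 h the order was AKR1B1 at 107 ± 9.04, AKR7A2 at 45.0 ± 0.902, AKR1C3 at 40.3 ± 4.65, AKR1A1 at 19.5 ± 0.718, AKR1C1 at 14.4 ± 0.995, AKR1B10 at 2.46 ± 0.321 and AKR1C2 at 1.06 ± 0.106 RPKM (SD, n = 3). The neighbours AKR7A2 and AKR1C3 overlapped. In CDDO-Me 24 h AKR1C3 (19.8 ± 2.19) overlapped AKR1A1 (20.2 ± 4.31), and AKR1B10 (1.33 ± 1.03) overlapped AKR1C2 (0.502 ± 0.152). In DMSO AKR1C3, at 6.63 ± 3.22 RPKM, was below AKR1A1, at 18.7 ± 0.926, without overlap. AKR1B1 was first in each group, with 74.9 ± 7.17 RPKM at 24 h and 53.1 ± 4.22 RPKM in DMSO. The place of AKR1C3 depended on the length used. Per kilobase of the principal transcript it had 101 ± 11.7 in CDDO-Me 72 h, above AKR7A2 at 58.9 ± 1.18, without overlap.

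Summed over the 7 genes, the level was 229 ± 14.3 RPKM in CDDO-Me 72 h, 165 ± 4.79 RPKM in CDDO-Me 24 h and 121 ± 4.43 RPKM in DMSO. The 3 groups did not overlap, and the ratio to DMSO was 1.89 at 72 h and 1.36 at 24 h. AKR1C1, AKR1C2 and AKR1C3 made up 24.2% ± 1.02 of this sum in CDDO-Me 72 h, 16.2% ± 0.994 in CDDO-Me 24 h and 6.66% ± 2.64 in DMSO. The DMSO shares were 3.83%, 7.10% and 9.07%, with replicate 1 the lowest. Without it the share in CDDO-Me 72 h was higher than in DMSO by 16.2 percentage points and that in CDDO-Me 24 h by 8.15, against 17.6 and 9.57 with all libraries. Each difference between groups in either measure had an exact two-sided permutation p of 0.1, the smallest that 3 against 3 libraries can give.

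Genes around the members were described by their place on the chromosome. Over all tested genes 6.02% were called at 72 h against DMSO and 2.15% at 24 h against DMSO. At 72 h against 24 h 1.02% were called. At these shares few calls would arise among so few genes. Within 500 kb of the AKR1C genes 4 other genes were tested (MANCR, AKR1E2, NET1 and LASTR), and edgeR called 0 in any comparison. At 72 h against DMSO 2 of them had an unadjusted p under 0.05, DESeq2 called 1 and limma-voom called 0. At 24 h against DMSO the counts were 1, 0 and 0, and at 72 h against 24 h they were 0, 0 and 0. The 2 at 72 h were NET1 (-0.30 ± 0.09, adjusted p = 0.0592, edgeR) and LASTR (-1.52 ± 0.45, adjusted p = 0.0633), which were lower. AKR1E2 was at 0.23 and MANCR at 0.07. The unadjusted counts have no background here. Of 6 other genes around AKR1B1 (chr7:134442350-134459284, minus strand) and AKR1B10 (chr7:134527592-134541408, plus strand), LINC03060 was higher at 72 h (1.61 ± 0.40, adjusted p = 0.0280). CALD1 was lower at 24 h (-0.37 ± 0.08, adjusted p = 0.0189). PRDX1, a peroxiredoxin that starts 27.5 kb from AKR1A1 (chr1:45550543-45570049, plus strand), was higher at 72 h (0.63 ± 0.11, adjusted p = 0.00314), though AKR1A1 was not called. Near AKR7A2 (chr1:19303965-19312146, minus strand), IFFO2 was lower at 72 h (-0.89 ± 0.14, adjusted p = 0.00173) and at 24 h (-0.93 ± 0.14, adjusted p = 0.00297).

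**Figure D5:**
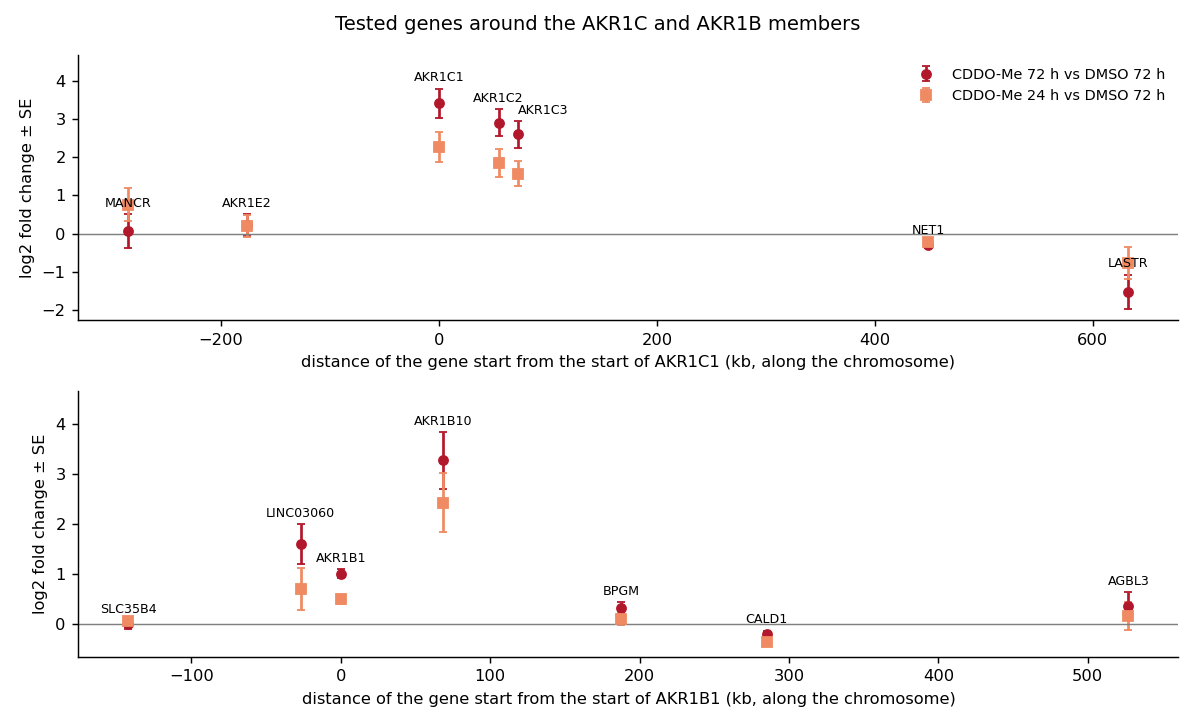
Log2 fold change ± SE of tested genes against the distance of their start from that of AKR1C1 (top) and AKR1B1 (bottom), in kb, for CDDO-Me 72 h (circles) and CDDO-Me 24 h (squares) against DMSO; EXOC4, which starts farther from AKR1B1, is not drawn. AKR1C1, AKR1C2 and AKR1C3 stand at 2.60 to 3.41 at 72 h, and AKR1B10 at 3.28 beside AKR1B1 at 1.01. On 1 side of the AKR1C genes are MANCR at 0.07 and AKR1E2 at 0.23, on the other NET1 at -0.30 and LASTR at -1.52.

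The genes whose pattern was most like that of a member were sought among 9769 tested genes outside the family with an average log2 CPM of at least 3. Likeness was Pearson's coefficient of log2 CPM over the 9 libraries, which share the same groups, so it is a description only. For AKR1C1 they were HMOX1 (0.999), the heme oxygenase, and FTH1 (0.997) and FTL (0.993), the ferritin chains. For AKR1B1 they were RHOBTB1 (0.991), CUEDC2 (0.988) and HINT1 (0.983). For AKR1B10 they were GSTP1 (0.987), a glutathione S-transferase, HTATIP2 (0.979) and MLLT11 (0.976).

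Of 10 other aldo-keto reductase genes, 6 were tested, and 1 was called higher at 72 h and at 24 h against DMSO. Over all tested genes 2.89% and 0.969% were called higher in these comparisons. The 1 gene was KCNAB2, a potassium channel beta subunit with an aldo-keto reductase fold, which overlaps NPHP4, a protein-coding gene on the opposite strand. KCNAB2 had 46.9 ± 3.02 CPM in CDDO-Me 72 h, 35.8 ± 2.43 CPM in CDDO-Me 24 h and 24.1 ± 2.64 CPM in DMSO (SD, n = 3). It rose by log2 0.96 ± 0.10 at 72 h (adjusted p = 5.78e-05) and by 0.57 ± 0.10 at 24 h (adjusted p = 0.00882). The median of the 6 was -0.17 at 72 h and 0.46 at 24 h. Between 72 h and 24 h edgeR and limma-voom called 0 of the 6, DESeq2 called 1, and 4 had an unadjusted p under 0.05. The share of all tested genes at that unadjusted level is not given, so the 4 cannot be judged. The untested AKR1B15, AKR1C4, AKR1C8 and AKR1D1 had at most 4 counts in any library.

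Reductases of other families act on some of the same carbonyl and quinone groups. Of 27 listed, 23 were tested, of which at 72 h against DMSO 7 passed as higher and 1 as lower, with a median of 0.10. Over all tested genes 2.89% were higher and 3.13% lower at 72 h against DMSO, and 0.969% and 1.18% at 24 h. At 72 h against 24 h these shares were 0.448% and 0.568%. NQO1, the quinone reductase, had the smallest p, with 3348 ± 40.5 CPM in CDDO-Me 72 h, 1879 ± 256 CPM in CDDO-Me 24 h and 449 ± 40.3 CPM in DMSO. It rose by log2 2.90 ± 0.11 at 72 h (adjusted p = 1.26e-09) and by 2.06 ± 0.10 at 24 h (adjusted p = 9.52e-08). CBR1, a carbonyl reductase that also acts on doxorubicin, rose by 0.61 ± 0.08 at 72 h (adjusted p = 0.000201) and by 0.42 ± 0.08 at 24 h (adjusted p = 0.00845). NQO2 rose by 0.66 ± 0.08 at 72 h (adjusted p = 0.000204) and by 0.42 ± 0.08 at 24 h (adjusted p = 0.0137). TP53I3, a quinone oxidoreductase induced by p53, rose by 0.74 ± 0.10 at 72 h (adjusted p = 0.000293). At 24 h 4 of the 23 were higher and 0 lower, the others being PTGR1 (0.94 ± 0.19, adjusted p = 0.0311) besides NQO1, CBR1 and NQO2, with a median of 0.11. The 1 lower gene at 72 h, named after its values were seen, was DHRS3, a retinal reductase (-4.44 ± 0.68, adjusted p = 0.00331). It had 0.286 ± 0.190 CPM in CDDO-Me 72 h and 6.43 ± 3.80 CPM in DMSO. Between 72 h and 24 h, 3 of the 23 were higher (NQO1, TP53I3 and VAT1) and 0 lower.

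Of the other genes of the polyol and glucuronate pathways, in which AKR1B1 and AKR1A1 act, 0 of 9 tested genes were called in any comparison by edgeR, DESeq2 or limma-voom. Over all tested genes edgeR called 6.02% at 72 h against DMSO, 2.15% at 24 h against DMSO and 1.02% at 72 h against 24 h. At these shares 0 of 9 says little. At an unadjusted p under 0.05 there were 4 of the 9 at 72 h against DMSO, 2 at 24 h against DMSO and 0 at 72 h against 24 h. The edgeR shares above do not apply to these unadjusted counts, which have no background here. The most expressed was UGDH, which makes UDP-glucuronate, with 293 ± 9.90 CPM in CDDO-Me 72 h, 237 ± 106 CPM in CDDO-Me 24 h and 181 ± 2.74 CPM in DMSO (log2 0.69 ± 0.26 at 72 h against DMSO, adjusted p = 0.194, edgeR). Among steroid and prostaglandin enzymes, 17 of 28 were tested, with 2 higher and 0 lower at 72 h and 1 higher and 0 lower at 24 h, and a median of 0.08 at 72 h. Over all tested genes 2.89% were called higher at 72 h and 0.969% at 24 h. PTGS1, a cyclooxygenase, rose by 1.54 ± 0.29 at 72 h (adjusted p = 0.00545) and by 1.51 ± 0.29 at 24 h (adjusted p = 0.0132). HSD17B10, a mitochondrial dehydrogenase, rose by 0.37 ± 0.07 at 72 h (adjusted p = 0.00759). Between 72 h and 24 h edgeR, DESeq2 and limma-voom called 0 of the 17, and 2 had an unadjusted p under 0.05, again with no background.

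Other markers moved with the groups as well, and their part in the changes of the aldo-keto reductases was not tested. Over all tested genes 3.13% were called lower at 72 h against DMSO and 1.18% at 24 h against DMSO. Epithelial markers were lower for 3 of 6 tested genes at 72 h and 1 of 6 at 24 h, with summed levels of 132 to 141 CPM in CDDO-Me 72 h, 161 to 227 CPM in CDDO-Me 24 h and 238 to 276 CPM in DMSO. Of the 12 fibroblast markers 3 were lower at 72 h and 0 higher, while their summed level was 17494 to 17997 CPM in CDDO-Me 72 h, 12829 to 19316 CPM in CDDO-Me 24 h and 15398 to 16739 CPM in DMSO. Endothelial markers summed to 7.75 to 8.28 CPM at 72 h, 10.9 to 12.3 CPM at 24 h and 13.3 to 15.6 CPM in DMSO, with 1 of 4 lower at 72 h and CDH5 under 3 counts in every library. Leukocyte markers summed to at most 3.55 CPM and hepatocyte markers to at most 1.24 CPM in any library. The median of 6 nuclear-retained RNAs, relative to the DMSO mean on the log2 scale, was -0.28, -0.60 and -0.59 in CDDO-Me 72 h, 0.07, 0.41 and -0.61 in CDDO-Me 24 h, and 0.39, -0.01 and -0.29 in DMSO. CDDO-Me 24 h replicate 3, the library with the highest AKR1C1 of its group, had the lowest of these 9 medians.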

How the data were processed

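The authors deposited 1 table of whole-number read counts per gene for 9 libraries, with gene coordinates and exon lengths. Per the submitters' processing notes it was made with STAR, SAMtools and featureCounts (Subread) on hg38; versions, the annotation release, and the strand and multiple-match settings were not stated in any source used. Per the labels' protocols the libraries were polyA-selected and unstranded. Genes were matched by Ensembl ID; all 7 members had the same coordinates in GENCODE 29.

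Counts were filtered with filterByExpr, leaving 14965 genes that hold 99.9% of all counts, and scaled by TMM. The 3 group means of all 9 libraries were fitted with edgeR 4.0.16 (robust quasi-likelihood test, R 4.3.3), with Benjamini-Hochberg adjustment over all tested genes and a threshold of 0.05. SE is the log2 fold change divided by the square root of F. The test was also run on simulated counts, with the outcome not given here. Those counts held no library that stands apart, so that run does not bear on such libraries. Every replicate pair differed by more than sampling noise, with chi-square per degree of freedom of at least 2.08. Summed levels and shares were compared with an exact permutation test over libraries. For 3 members the 3 genes most like them are named. From each list up to 4 called genes with the smallest adjusted p, or the most expressed gene where none was called, are named. Alternatives used DESeq2 1.42.0, limma-voom 3.58.1, other scaling, no filter, a replicate block, and each library left out. Others left out both libraries that stood apart in these data, or used a second gene length chosen after seeing the data. The members and lists were chosen with earlier results of these data known.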

Additional observations from a re-analysis of the deposited data

Results flagged for a closer look

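AKR1B1 is given here because its difference from DMSO differed between the times of treatment, by the test of 72 h against 24 h itself. Its log2 fold change against DMSO was 0.51 larger at 72 h than at 24 h (edgeR's quasi-likelihood test, adjusted p = 0.0150), with all 3 CDDO-Me 72 h libraries above all 3 CDDO-Me 24 h libraries. The call ended in 4 of the 9 fits that left out 1 library, namely CDDO-Me 72 h replicate 1 or 3 or CDDO-Me 24 h replicate 1 or 2, with adjusted p up to 0.139. AKR1C1, AKR1C2 and AKR1C3 had larger differences between these times (1.14, 1.06 and 1.03), also with no overlap, which did not pass the test. As no 24 h vehicle was analysed here, time under the drug and time in culture cannot be told apart in this difference.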

How the results depend on the processing

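For AKR1C1, AKR1C2, AKR1C3, AKR1B10 and AKR1B1 at 72 h against DMSO, direction and call held under all 17 alternatives. The other comparisons depended on the setting, and where no construction is named the cause was not tested. Leaving out each library in turn gave 134 to 1657 genes past the threshold at 24 h against DMSO (321 with all), 401 to 1972 at 72 h against DMSO (901 with all) and 32 to 1843 at 72 h against 24 h (152 with all). The highest of each came without CDDO-Me 24 h replicate 3, and the lowest without DMSO replicate 2 at 24 h against DMSO and without CDDO-Me 72 h replicate 3 in the others (CDDO-Me 72 h replicate 1 tying at 72 h against DMSO). The members called were 0 to 5 at 24 h against DMSO and 0 to 4 at 72 h against 24 h. Without both libraries that stood apart, 3464, 2724 and 3471 genes passed in these comparisons. In that fit 6 members passed at 24 h against DMSO and 6 at 72 h against 24 h, AKR1A1 among them at 0.30 (adjusted p = 0.00540) and -0.21 (adjusted p = 0.0296). These 2 libraries were picked as deviant in these same data. Leaving out both or either lowers the spread by construction, so no support is drawn from these counts. With no filter on low counts 662 genes passed at 24 h against DMSO and 507 at 72 h against 24 h, where 2 members passed. DESeq2 called 546 and 394 genes in these comparisons, with 5 and 2 members. Fits of the 2 compared groups alone, on fewer libraries, called 100 genes at 24 h against DMSO and 1776 at 72 h against DMSO, with 0 members at 24 h against DMSO and 2 at 72 h against 24 h.

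The summed AKR1C1-3 difference at 72 h against 24 h (1.07, adjusted p = 0.113) passed with DESeq2 (1.08), without both libraries that stood apart (1.21) and in the fit of the 2 groups (1.07), and ran from 1.00 to 1.22 with each library left out (adjusted p 0.00246 to 0.373). At 24 h against DMSO it did not pass in the fit of 2 groups (1.80, adjusted p = 0.0607) or without DMSO replicate 2 (1.81, adjusted p = 0.0549), and ran from 1.56 to 2.10 with each library left out and to 1.41 without both libraries that stood apart. Signs turned for AKR1A1 and AKR7A2, neither called with all libraries. With each library left out AKR1A1 ran from -0.0074 to 0.27 and AKR7A2 from -0.0082 to 0.058 at 24 h against DMSO, negative only without CDDO-Me 24 h replicate 1. At 72 h against 24 h AKR1A1 ran from -0.21 to 0.067 and was positive without CDDO-Me 24 h replicate 1 (0.07) or replicate 2 (0.05).

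Deviations from the group mean had correlations of -0.03 to 0.08 between same-numbered libraries of different groups. Between libraries of differing number they were -0.11 to 0.04. The labels do not say what a shared number means, and whether it marks a pairing was not tested. With the replicate block 358, 963 and 219 genes passed at 24 h, at 72 h and between them, and 4, 5 and 1 members were called. The summed AKR1C1-3 difference at 72 h against 24 h was 1.09 (adjusted p = 0.0488) with the block.

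AKR1B10 and AKR1C2 had 3 to 29 counts in the DMSO libraries, which limits the precision of their folds. The lack of a 24 h vehicle and reads shared among AKR1C copies limit the rest.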

Other observations

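AKR1C7P, a pseudogene of the AKR1C cluster named after its values were seen, had 15, 8 and 8 counts in CDDO-Me 72 h, 3, 9 and 16 counts in CDDO-Me 24 h, and 0, 0 and 3 counts in DMSO. It was too low to be tested, and whether these reads came from the pseudogene or from its functional copies was not tested.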
